A study of Mus musculus with 28 samples.

Results

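The regions described here are 774 stretches of mouse genome marked by H3K27me3 in microglia and centred on the start of a protein-coding gene. They were taken from a table of 26326 regions by 3 conditions read from its annotation columns: the annotation begins with promoter-TSS, the gene type is protein-coding, and the region is shorter than 50000 bp. They make up 2.94% of all regions, belong to 762 genes and take 2.60% of the covered length. The conditions read no tag count and no fold change, but they were set with earlier results of these data known. H3K27me3 was profiled by chromatin immunoprecipitation and sequencing in microglia sorted from adult male wild-type C57BL/6 mice, with the brains of 2 to 6 mice pooled for each sort. Basal microglia, labelled CD44Low CD45Low CD11bLow, were from animals kept on regular diet, and the other 3 groups came from mice fed 0.2% cuprizone, a copper chelator that causes demyelination, for 4 weeks and sorted as CD229-CD11c-, CD229+CD11c- or CD229+CD11c+. Each group has 3 counted libraries, numbered 3, 4 and 5 for basal and 1, 2 and 3 for the others. Only the basal label names the low CD44, CD45 and CD11b gate, so diet and gate cannot be told apart in a comparison with basal. No label ties a replicate to separate animals, so p-values measure the spread between these libraries.

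H3K27me3 is laid down by Polycomb repressive complex 2, whose catalytic subunit is EZH2 or EZH1, and is read by Polycomb repressive complex 1. It sits over the starts of silent genes, above all CpG-rich promoters of developmental regulators and of genes that belong to other cell types. In microglia, the resident macrophages of the brain, it covers neuronal and developmental promoters, while identity and housekeeping promoters lack it. The study's design text places the mark as a repressive mechanism bearing on inflammatory activity.

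Promoters of marker genes were looked up among the 774, which cannot check the labelled cell type. Of 40 homeostatic microglia genes listed, 1 had a promoter among the 774, Adgrg1, and of 29 peripheral macrophage and monocyte genes, 2 did. Such low counts do not bear on the cell type. The 774 belong to 762 genes, where RefSeq promoter windows cover 17492 protein-coding genes. No region in the table, at a promoter or elsewhere, carried the name of the genes for the sort markers CD229 (Ly9), CD11c (Itgax), CD44 (Cd44), CD45 (Ptprc) or CD11b (Itgam). A repressive mark does not show which genes are expressed, and the regions were called on other basal libraries, so a promoter marked only in cuprizone-fed mice was not counted.

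Promoter sequences are shown for 6 genes on which the comparisons turn: Kcnip3 and Twist2, whose promoters gained the mark in both CD229+ subsets; Rai14, Axl and Chst1, whose promoters lost it; and Pde4a, which went opposite ways. Chst1 and Pde4a were chosen after their values were seen. Each is the 250 bases before the annotated gene start, from RefSeq on GRCm38.p6, the mm10 build of the files, written 5′ to 3′ along the gene, and capitals mark CpG dinucleotides, the positions by which Polycomb-marked promoters are usually classed. The windows lie at chr2:127482500-127482749 on the minus strand for Kcnip3, chr1:91801211-91801460 plus for Twist2, chr15:10714099-10714348 minus for Rai14, chr7:25788734-25788983 minus for Axl, chr2:92600867-92601116 plus for Chst1 and chr9:21165464-21165713 plus for Pde4a.
Kcnip3: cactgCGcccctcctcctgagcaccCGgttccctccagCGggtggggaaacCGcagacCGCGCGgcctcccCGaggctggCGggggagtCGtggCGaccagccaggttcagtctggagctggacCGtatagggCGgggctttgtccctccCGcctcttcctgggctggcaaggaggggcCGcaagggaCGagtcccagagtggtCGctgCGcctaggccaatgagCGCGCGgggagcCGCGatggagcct
Twist2: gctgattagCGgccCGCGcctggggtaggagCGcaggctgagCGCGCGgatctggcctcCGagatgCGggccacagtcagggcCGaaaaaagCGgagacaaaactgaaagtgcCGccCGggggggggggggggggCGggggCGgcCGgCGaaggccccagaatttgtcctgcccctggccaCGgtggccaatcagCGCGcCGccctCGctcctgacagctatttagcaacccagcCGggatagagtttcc
Rai14: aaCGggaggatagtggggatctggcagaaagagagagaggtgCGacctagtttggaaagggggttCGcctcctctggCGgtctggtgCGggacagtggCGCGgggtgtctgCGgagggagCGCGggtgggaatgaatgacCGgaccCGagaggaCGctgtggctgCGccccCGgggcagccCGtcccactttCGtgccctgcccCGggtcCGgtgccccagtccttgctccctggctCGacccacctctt
Axl: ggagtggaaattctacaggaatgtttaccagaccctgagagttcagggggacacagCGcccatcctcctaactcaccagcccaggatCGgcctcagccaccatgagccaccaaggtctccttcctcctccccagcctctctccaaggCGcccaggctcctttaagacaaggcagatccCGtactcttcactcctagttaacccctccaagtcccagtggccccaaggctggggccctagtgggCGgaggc
Chst1: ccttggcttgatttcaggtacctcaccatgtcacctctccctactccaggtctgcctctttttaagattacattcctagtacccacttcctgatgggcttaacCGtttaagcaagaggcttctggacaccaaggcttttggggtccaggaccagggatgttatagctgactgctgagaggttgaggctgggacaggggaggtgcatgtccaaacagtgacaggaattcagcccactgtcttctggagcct
Pde4a: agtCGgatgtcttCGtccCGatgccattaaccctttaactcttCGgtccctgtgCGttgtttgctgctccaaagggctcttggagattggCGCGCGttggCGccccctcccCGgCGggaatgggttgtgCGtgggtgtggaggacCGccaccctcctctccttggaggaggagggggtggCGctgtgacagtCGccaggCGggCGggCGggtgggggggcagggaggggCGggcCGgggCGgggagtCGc

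The window of Kcnip3 and that of Twist2 each hold 23 CpGs, Pde4a 22 and Rai14 20, against 5 for Axl and 1 for Chst1. The promoters that lost the mark thus include CpG-rich and CpG-poor ones.

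In the 12 counted libraries, 7740002 to 11362168 tags fell in the 26326 regions, and a promoter region held a median of 190.5 to 288.5 tags per library. Promoter regions had a median length of 6521 bp, against 6386 bp for all regions, and a median basal enrichment over input, as the authors' log2 value, of 1.78, against 1.49. The promoters with the highest basal enrichment were Shroom2, Lrch2 and Frmpd4, all on the X chromosome, at 4.89, 4.60 and 4.09, and the lowest was Tgm5, a transglutaminase gene, at 1.02. At the length limit, Krt24, a keratin gene, lay just inside at 47615 bp with a log2 fold change against basal of -0.02 in CD229+CD11c- and 0.04 in CD229+CD11c+. Nkx6-1, a homeobox gene, lay just outside at 50317 bp with 0.42 and 0.18. CD229-CD11c- replicate 3 stood apart: its promoter log2 values differed from the mean of its group's other libraries with an SD of 0.42, against 0.19 to 0.30 for the other 11. In every other group, too, replicate 3 had the largest SD, at 0.24 in basal, 0.30 in CD229+CD11c- and 0.29 in CD229+CD11c+. Replicate 3 is the counted library whose title lacks a PE150 tag, described further on. Leaving out CD229-CD11c- replicate 3 gave 3 called promoters in CD229-CD11c- against basal in place of 0, and 264 in CD229+CD11c+ against basal in place of 171. The comparison between the CD229+ subsets, which holds no CD229-CD11c- library but shares its spread estimate, gave 67 in place of 23.

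The 774 promoters together took 2.76% ± 0.037 (SD, n = 3) of region tags in basal microglia, between 2.72% and 2.79%. The share was 2.84% ± 0.046 for CD229-CD11c- libraries, 3.15% ± 0.013 for CD229+CD11c- libraries and 3.04% ± 0.029 for CD229+CD11c+ libraries. Every CD229+ library, the lowest at 3.01%, lay above every basal and CD229-CD11c- library, the highest of which was at 2.89%. The mark was measured relative to the other regions, so a change common to all regions does not show, and fewer cells with the mark cannot be told apart from less mark per cell.

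CD229+CD11c- microglia against basal showed the broadest change at promoters. H3K27me3 rose at 263 of the 774 promoters and fell at 17 (edgeR quasi-likelihood test, Benjamini-Hochberg adjusted p under 0.05 over all regions), which is 36.2% of promoters, where 13.0% of all regions were called. Over all regions 9.52% rose and 3.47% fell. The median log2 fold change was 0.26 at promoters and -0.03 over all regions, and 14 promoters rose and 5 fell by at least 2-fold. Scaling by total tags in place of the trimmed mean of M-values (TMM) lowered the median of all regions by 0.14, to -0.16, and gave 192 promoters higher and 59 lower. The promoters' median was 0.29 above that of all regions under both scalings. Each applies a factor per library that shifts all regions alike, so this gap could not change between them. With loess offsets, which can differ between the regions of a library, the promoters' median was 0.26 above that of all regions.

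**Figure D1:**
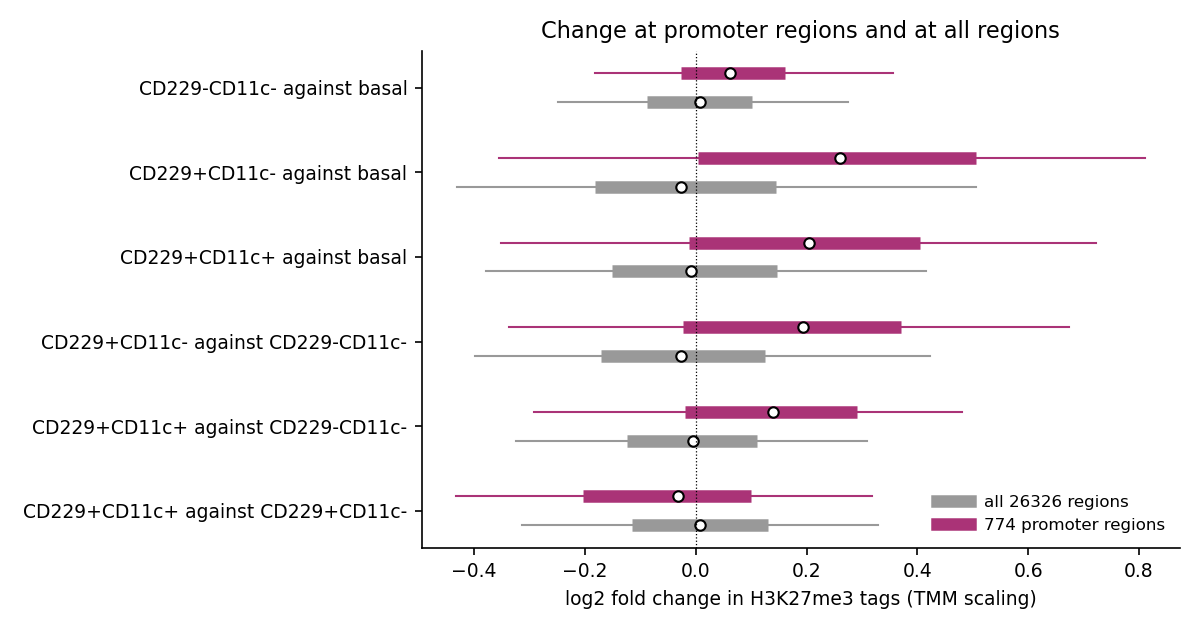
Log2 fold changes of H3K27me3 tags (x axis) in the 6 comparisons (rows) for the 774 promoter regions and for all 26326 regions. Open circles are medians, thick bars the middle 50% and thin lines the 5th to 95th percentiles; promoter regions lie to the right of all regions in the 5 upper rows, with a median of 0.26 in CD229+CD11c- against basal.

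Kcnip3 encodes a calcium-binding protein that interacts with potassium channels and represses transcription, and had the largest rise by the naming rule. Its region (chr2:127480948-127484578) held 9.80, 6.53 and 6.30 CPM (tags scaled to the TMM-adjusted region total of each library) in the basal libraries and 9.17, 10.5 and 11.3 in CD229-CD11c-. It held 32.7, 32.0 and 33.1 in CD229+CD11c- and 16.1, 19.7 and 18.6 in CD229+CD11c+. Both CD229+ subsets lay above all other libraries without overlap and did not overlap each other. The log2 fold change against basal was 2.12 ± 0.15 (SE, adjusted p = 4.57e-08, edgeR) in CD229+CD11c- and 1.27 ± 0.16 (adjusted p = 6.54e-05, edgeR) in CD229+CD11c+. Samd14, chosen after its values were seen because of its low level, rose by a log2 fold change of 2.32 and 1.40 in the same comparisons, the second lost without basal replicate 4.

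Gene groups are read against all 774 promoters, of which 34.0% rose in CD229+CD11c- and 20.0% in CD229+CD11c+, with medians of 0.26 and 0.21. The groups were listed with earlier results known and no group was tested as a set. Of 9 homeobox and paired-box promoters, 8 rose and 0 fell in CD229+CD11c- against basal (median log2 fold change 0.78) and 8 rose in CD229+CD11c+ (median 0.48). Nkx1-2, a homeobox gene of the early neural plate, held 72.2, 64.9 and 71.7 CPM in basal, 84.7, 80.1 and 81.6 in CD229-CD11c-, 119, 130 and 118 in CD229+CD11c- and 96.4, 99.9 and 97.5 in CD229+CD11c+. None of the 4 groups overlapped another at Nkx1-2, and CD229+CD11c- was highest. Its log2 fold change against basal was 0.81 ± 0.07 in CD229+CD11c- and 0.49 ± 0.07 in CD229+CD11c+. Pou3f2, a POU-domain regulator of neuronal fate, rose by 0.71 and 0.54. Phox2a, a regulator of autonomic neurons chosen after its values were seen, rose by 0.93 in CD229+CD11c-. The exception was Tshz2, at -0.08 and 0.21, which did not pass in either.

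Of 25 forkhead, T-box, Sox, basic helix-loop-helix and zinc-finger promoters, 16 rose and 0 fell in CD229+CD11c- (median 0.53), and 8 rose in CD229+CD11c+ (median 0.20). Sox1, a neural progenitor factor, held 118, 116 and 126 CPM in basal, 184, 153 and 123 in CD229-CD11c-, 272, 261 and 237 in CD229+CD11c- and 226, 224 and 181 in CD229+CD11c+. CD229+CD11c- lay above every other group, and CD229-CD11c- overlapped both basal and CD229+CD11c+. Its log2 fold change was 1.09 ± 0.11 and 0.81 ± 0.11 against basal in the CD229+ subsets. Prdm8, a neural zinc-finger factor, rose by 0.62 and 0.43. Twist2, a mesenchymal basic helix-loop-helix factor, held 8.5, 10.9 and 10.9 CPM in basal, 19.2, 15.5 and 13.9 in CD229-CD11c-, 24.5, 21.5 and 13.6 in CD229+CD11c- and 22.9, 21.4 and 15.7 in CD229+CD11c+. Every cuprizone library lay above every basal library, and the 3 cuprizone groups overlapped one another. Twist2 rose by 0.98 ± 0.20 in both CD229+ subsets, and its 0.68 ± 0.20 in CD229-CD11c- did not pass (adjusted p = 0.983, edgeR). In each CD229+ subset 4 of the 25 had negative values against basal, none of which passed. Among them were Id1, at -0.55 and -0.58, and Klf1, the erythroid factor, at -0.05 and -0.62. These 2 were chosen after their values were seen.

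Secreted ligands followed with 8 of 17 promoters higher and 0 lower in CD229+CD11c- (median 0.37), and 6 higher and 1 lower in CD229+CD11c+ (median 0.38). Ntf5, the mouse neurotrophin-4 gene, held 91.3, 88.3 and 88.3 CPM in basal and 104, 98.8 and 97.4 in CD229-CD11c-. It held 153, 157 and 159 in CD229+CD11c- and 122, 116 and 119 in CD229+CD11c+. Again no group overlapped another, and the order was the same as at Nkx1-2. Gdf7, a bone morphogenetic protein family member, rose by 0.63 and 0.32, and Sfrp1, a secreted Wnt inhibitor, by 0.83 and 0.94. The Gdf7 call in CD229+CD11c+ was kept in 9 of 12 fits with a library left out. The Sfrp1 call in CD229+CD11c+ was lost without basal replicate 4 or CD229+CD11c+ replicate 1 (largest adjusted p = 0.0636, edgeR). The ligand that fell was Fgf2, the basic fibroblast growth factor, chosen after its values were seen: 5.0, 5.34 and 5.70 CPM in basal against 1.72, 1.58 and 2.65 in CD229+CD11c+, a log2 fold change of -1.40 ± 0.33 (adjusted p = 0.0150, edgeR). The groups did not overlap, but this call was lost without basal replicate 4 or either of CD229+CD11c+ replicates 1 and 2.

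Promoters of channels, receptors, adhesion and matrix genes rose at shares on both sides of those of all promoters (34.0% and 20.0%). Ion channel and transmitter receptor promoters rose at 15 of 37 in CD229+CD11c- with 0 lower (median 0.36), and at 7 with 1 lower in CD229+CD11c+ (median 0.32). The lower one was Chrna1, the muscle acetylcholine receptor subunit, at -0.31 (adjusted p = 0.0459, edgeR), a call kept in 5 of the 12 fits that each left out 1 library. Of 16 synaptic and neuronal identity promoters, 7 rose in CD229+CD11c- and 5 in CD229+CD11c+ with 0 lower in either. Gad1 and Gad2, which encode the enzymes that make the transmitter GABA, rose by 0.55 and 0.56 in CD229+CD11c- and by 0.49 and 0.37 in CD229+CD11c+; the Gad1 call in CD229+CD11c+ was lost without basal replicate 4 or CD229+CD11c+ replicate 1. G protein-coupled receptors outside the transmitter receptors rose at 6 of 22 in each CD229+ subset, with 1 lower in CD229+CD11c+, the nucleotide receptor P2ry2, a call kept in 8 of 12 such fits. Fzd1, a Wnt receptor, rose by 0.85 and 0.57. Among 9 cadherins and protocadherins, 4 rose in CD229+CD11c- and 3 in CD229+CD11c+, with Pcdh8 at 0.60 and 0.58. Extracellular matrix promoters rose at 9 of 23 in CD229+CD11c- and 2 in CD229+CD11c+, with Fbn2, a fibrillin gene, at 0.81 and 0.57. Slc43a1, an amino acid transporter gene, rose by 1.20 and 0.89. It was 1 of 3 that rose in CD229+CD11c- among the 7 promoters whose gene name has the solute carrier prefix, 1 of which, Slc6a19os, is named as an opposite-strand gene and not as a carrier. Of 8 axon guidance promoters, 3 and 2 rose, Ntn3 and Epha4 among them. In CD229+CD11c+ the Ntn3 call was kept in 7 and the Epha4 call in 9 of 12 such fits, and total-tag scaling ended the Ntn3 call there and the Epha4 call in CD229+CD11c-. Of 9 epithelial junction and keratin promoters, 2 rose and 1, Krt9, fell in CD229+CD11c- (kept in 8 of 12 such fits), and 3 rose in CD229+CD11c+. Crb3, a polarity gene, was the largest, at 1.42 and 0.88.

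Cytokine promoters showed few changes. Of 12 promoters in the list of cytokines, chemokines and their receptors, 1 rose and 1 fell in CD229+CD11c-, and 0 rose and 1 fell in CD229+CD11c+. The median was -0.04 in both. The 1 that rose was Socs2, which encodes no cytokine, chemokine or receptor. Socs2, a suppressor of cytokine signalling, held 26.7, 17.7 and 14.8 CPM in basal, 31.5, 28.7 and 41.1 in CD229+CD11c- and 18.4, 18.2 and 21.7 in CD229+CD11c+. Its rise of 0.78 ± 0.19 in CD229+CD11c- was without overlap, but was lost without basal replicate 4 or 5. The fall in CD229+CD11c- was at Ifna9 (-0.47) and that in CD229+CD11c+ at Ifna16 (-0.56), 2 of the near-identical type I interferon genes, among which short reads may be shared. Each of these calls was kept in 8 of the 12 fits with a library left out.

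Of 12 promoters of the cAMP pathway, 6 rose in CD229+CD11c- (median 0.33), and 5 rose and 1 fell in CD229+CD11c+. Adcy6, an adenylate cyclase gene, held 11.7, 11.0 and 12.6 CPM in basal, 12.3, 11.9 and 15.8 in CD229-CD11c-, 28.1, 25.5 and 30.9 in CD229+CD11c- and 18.0, 14.6 and 17.2 in CD229+CD11c+. CD229+CD11c- lay apart from the other 3 groups. Rapgef3, which encodes the cAMP-activated exchange factor EPAC1, rose by 1.02 ± 0.10 and 0.70 ± 0.10, and Gnas, the stimulatory G protein subunit, by 0.89 and 0.66. The Adcy6 rise of 0.49 in CD229+CD11c+ (adjusted p = 0.0438, edgeR) was kept in 4 of 12 fits with a library left out, and its rise of 1.25 in CD229+CD11c- in all 12.

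Shorter lists gave single promoters. Cdkn1c, which encodes the cell cycle inhibitor p57, held 62.6, 52.3 and 61.9 CPM in basal and 68.2, 63.1 and 69.1 in CD229-CD11c-, against 102, 95.4 and 96.3 in CD229+CD11c- and 89.4, 79.1 and 87.3 in CD229+CD11c+. The CD229+ libraries all lay above the others, and the promoter rose by 0.73 ± 0.08 and 0.53 ± 0.08. Of the Polycomb and demethylase genes, Sfmbt2, a Polycomb-related repressor gene, rose by 0.83 and 0.41. Its call in CD229+CD11c+ was kept in 8 of 12 fits with a library left out and was lost with total-tag scaling (adjusted p = 0.0563, edgeR) and with loess offsets (adjusted p = 0.0644, edgeR). Pcgf5 was at 0.14 and 0.12 and did not pass. Adgrg1, the homeostatic microglia gene, was at 0.30 and 0.21 without passing against basal. Ifitm3, an interferon-induced gene, was at -0.37 and -0.28 and did not pass. The immediate-early genes Fos, at 0.60 and 0.39, and Dusp4, at 0.02 and -0.07, did not pass. Markers of other brain and blood cells were few: of 3 endothelial and mural promoters Sox17 rose by 0.30 in CD229+CD11c-, and 1 of 2 lymphocyte promoters, Bcl11b, rose by 0.59 and 0.50. The Sox17 value was 0.16 with total-tag scaling (adjusted p = 0.109, edgeR) and 0.11 with loess offsets (adjusted p = 0.402, edgeR), neither of which passed, and the call was also lost without CD229+CD11c- replicate 2. Among astrocyte genes the 1 promoter was Sox1.

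**Figure D2:**
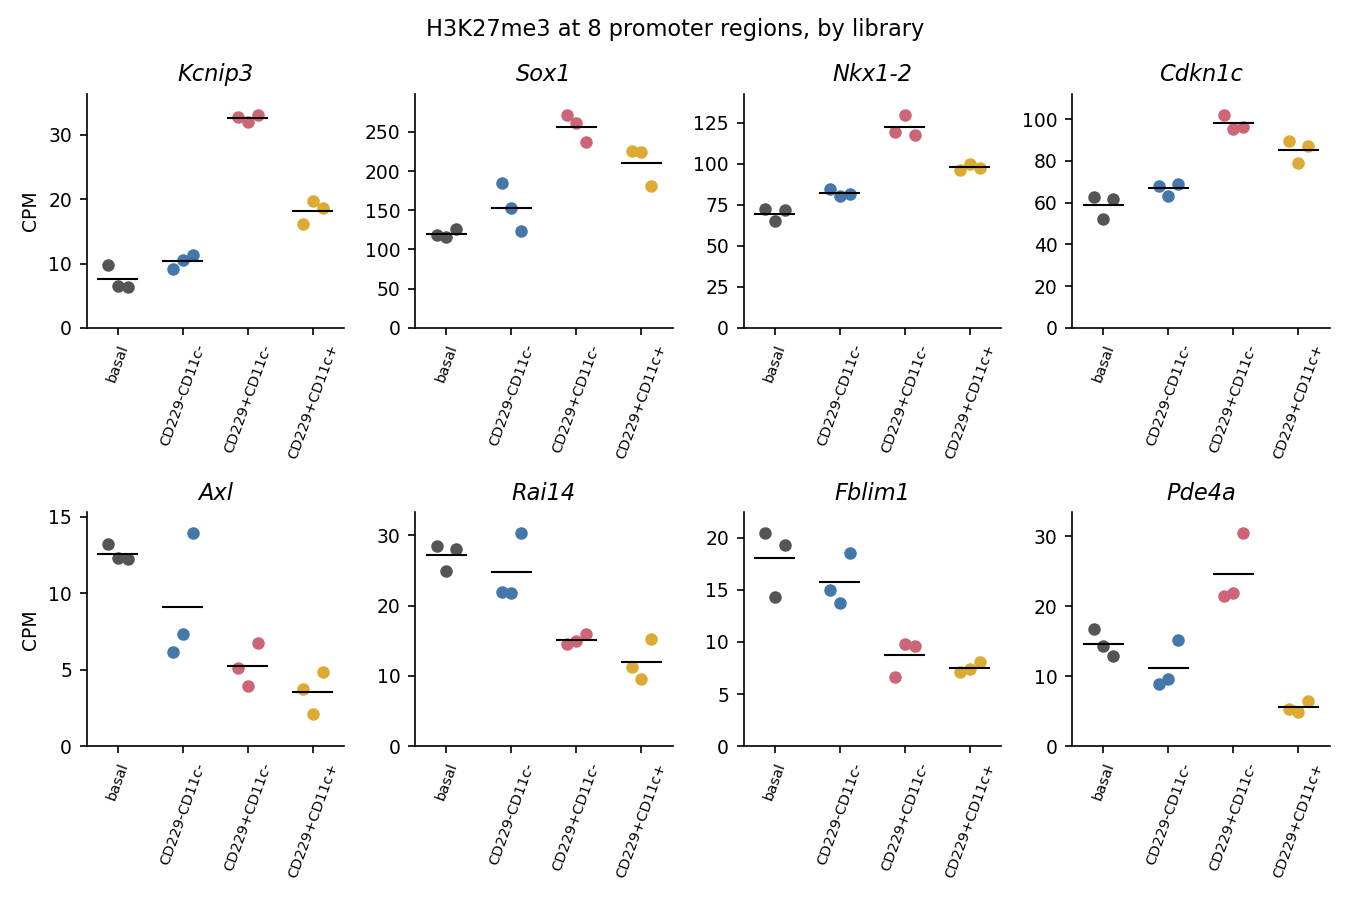
H3K27me3 CPM (y axis, linear from 0) at 8 promoter regions in each of the 12 libraries (points) with group means (bars). The upper row rises in both CD229+ subsets, Axl, Rai14 and Fblim1 fall there, and Pde4a is highest in CD229+CD11c- (21.5 to 30.4) and lowest in CD229+CD11c+ (4.85 to 6.54).

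Promoters that lost H3K27me3 were few. The 17 that fell in CD229+CD11c- had a median log2 fold change of -0.69 and the 16 that fell in CD229+CD11c+ one of -1.08, and those named outside the naming rule were chosen after their values were seen. Axl encodes a receptor tyrosine kinase that takes up dying cells and is raised in disease-associated microglia; of the 47 genes of that list, its promoter and that of Gpx3 were among the 774. The Axl region (chr7:25787307-25791743) held 13.2, 12.3 and 12.3 CPM in basal and 6.15, 7.32 and 13.9 in CD229-CD11c-. It held 5.11, 3.97 and 6.73 in CD229+CD11c- and 3.75, 2.14 and 4.86 in CD229+CD11c+. Both CD229+ subsets lay below basal without overlap, and CD229-CD11c- overlapped basal and CD229+CD11c-, its replicate 3 being the high one. The log2 fold change against basal was -1.25 ± 0.28 (adjusted p = 0.00372, edgeR) and -1.78 ± 0.29 (adjusted p = 0.00103, edgeR). Gpx3, a secreted glutathione peroxidase, was at -0.43 and -0.20 and did not pass.

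Rai14, which encodes an actin-associated ankyrin repeat protein (chr15:10710984-10718196), held 28.5, 24.9 and 28.0 CPM in basal and 22.0, 21.8 and 30.3 in CD229-CD11c-. It held 14.5, 15.0 and 15.9 in CD229+CD11c- and 11.2, 9.59 and 15.2 in CD229+CD11c+. Every CD229+ library was below every other. Its log2 fold change was -0.84 ± 0.15 and -1.16 ± 0.16 against basal, and against CD229-CD11c- it was -0.71 and -1.03, each of which passed in all 12 fits with a library left out. Fblim1, a filamin-binding adhesion gene, held 20.4, 14.4 and 19.3 in basal, 15.0, 13.8 and 18.6 in CD229-CD11c-, 6.66, 9.82 and 9.65 in CD229+CD11c- and 7.09, 7.45 and 8.05 in CD229+CD11c+. It had the same separation, with -1.06 ± 0.18 and -1.26 ± 0.18 against basal. Xylt1 (-0.68 and -0.71), which starts proteoglycan chains, and Chst1 (-1.17 and -1.02), a carbohydrate sulfotransferase gene, also fell in both, as did B3gnt7 (-0.92 and -1.14), another gene of glycan synthesis. The B3gnt7 calls were each kept in 8 of 12 fits with a library left out. Ctse, the cathepsin E gene, held 5.70, 5.70 and 4.66 in basal against 0.579, 1.40 and 2.81 in CD229+CD11c- and 2.03, 1.81 and 1.68 in CD229+CD11c+. Those few tags gave -1.77 ± 0.35 and -1.54 ± 0.34, and the second call was lost without basal replicate 4 (adjusted p = 0.0579, edgeR).

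Among other losses, those of Rrm2 and Myo5a passed in 1 subset only, and the difference between subsets was not shown for them. Rrm2, a ribonucleotide reductase subunit gene of dividing cells, held 15.3, 13.9 and 12.8 CPM in basal, 12, 12.2 and 15.2 in CD229-CD11c-, 5.50, 6.08 and 6.85 in CD229+CD11c- and 7.80, 10.2 and 12.8 in CD229+CD11c+. It was lowest in CD229+CD11c-, which overlapped no other group, with -1.19 ± 0.19 there and -0.44 ± 0.17 in CD229+CD11c+, and the difference of 0.75 between the subsets had an adjusted p of 0.0644 (edgeR). Myo5a, a myosin motor gene, was at -0.71 and -1.15 and passed in CD229+CD11c+, where the call was kept in 8 of 12 such fits. Abr (-0.49), C77080 (-0.34) and Olfr1443 (-0.30) fell in CD229+CD11c-, and Pianp fell in both subsets, by 0.45 and 0.64. With each library left out in turn, the call was kept in 5 of 12 fits at Abr, 7 at C77080, 4 at Olfr1443, and 7 and 9 at Pianp, and DESeq2 did not call Olfr1443 (adjusted p = 0.0581).

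CD229+CD11c+ microglia against basal had fewer called promoters. H3K27me3 rose at 155 and fell at 16, together 22.1% of promoters, where 5.79% of all regions were called, 4.33% higher and 1.47% lower. The median was 0.21 at promoters and -0.01 over all regions. By the naming rule the leading rises after Kcnip3 were Tcerg1l (1.02), Twist2 (0.98), Tafa5 (0.98), Apba2 (0.96), Sfrp1 (0.94) and Csmd2 (0.90). With each library left out in turn, the calls of Apba2, Sfrp1 and Csmd2 were kept in 9, 10 and 8 of 12 fits. The count fell to 99 without basal replicate 3, 60 without basal replicate 4, 63 without CD229+CD11c+ replicate 1 and 76 without CD229+CD11c+ replicate 2, and with only the basal and CD229+CD11c+ libraries in the fit it was 266. Because both comparisons with basal use the same basal libraries, no overlap between them is given.

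The CD229+ subsets were then compared directly. In CD229+CD11c+ against CD229+CD11c-, H3K27me3 was lower at 23 promoters and higher at 0, that is 2.97% of promoters, where 0.824% of all regions were called, 0.0532% higher and 0.771% lower. The promoter median was -0.03, and 0.03 with total-tag scaling, which left 5 of the calls. The number of calls rested on single libraries: it was 9, 7 and 2 without CD229+CD11c- replicates 1, 2 and 3 in turn, and 1 without CD229+CD11c+ replicate 1 or 2.

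Pde4a encodes a phosphodiesterase that degrades cAMP and was chosen after its values were seen. Its region (chr9:21163796-21167472) held 16.8, 14.4 and 12.9 CPM in basal and 8.86, 9.59 and 15.2 in CD229-CD11c-. It held 21.5, 21.9 and 30.4 in CD229+CD11c- and 5.27, 4.85 and 6.54 in CD229+CD11c+. The subsets lay on opposite sides of basal, with no overlap among these 3 groups. Pde4a rose by 0.75 ± 0.18 in CD229+CD11c- (adjusted p = 0.00801, edgeR) and had -1.39 ± 0.21 in CD229+CD11c+ (adjusted p = 0.000564, edgeR). Their difference of -2.13 ± 0.21 (adjusted p = 3.52e-05, edgeR) passed in all 12 fits with a library left out, between -2.27 and -1.95. The rise in CD229+CD11c- was lost without that group's replicate 3 (adjusted p = 0.0522, edgeR). No other promoter passed in opposite directions against basal in the 2 subsets.

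Among the other 22, Dst, a cytoskeletal linker gene, was at 0.80 in CD229+CD11c- and -0.26 in CD229+CD11c+ against basal. Its 21.0, 19.5 and 30.0 CPM in CD229+CD11c- lay above 7.5, 12.4 and 13.8 in CD229+CD11c+ without overlap. Hap1, a huntingtin-associated protein gene, was at 0.69 and -0.06, Phldb1 at 0.15 and -0.45, and Chrm1, a muscarinic receptor gene, at 0.29 and -0.34. Snai3, Adcy6, Car11 and Glt1d1 were lower in CD229+CD11c+ than in CD229+CD11c- by a log2 difference of -0.75, -0.76, -0.65 and -0.62. Pparg, which encodes the lipid-sensing nuclear receptor PPAR gamma, was also singled out with its values known. This promoter held 28.0, 26.7 and 23.7 in basal, 34.3, 32.8 and 41.4 in CD229+CD11c- and 22.5, 23.7 and 26.8 in CD229+CD11c+, so that CD229+CD11c- lay above both. Its log2 fold change was 0.47 and -0.10 against basal, and the difference between the subsets was -0.57 ± 0.12 (adjusted p = 0.0307, edgeR). Each of these differences was lost without CD229+CD11c+ replicate 1 and again without replicate 2, as was that of Kcnip3, -0.85. They were kept in 10 of 12 fits at Kcnip3, 9 at Adcy6, Snai3 and Phldb1, 8 at Car11 and Glt1d1, 7 at Hap1 and Pparg, 4 at Dst and 3 at Chrm1.

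**Figure D3:**
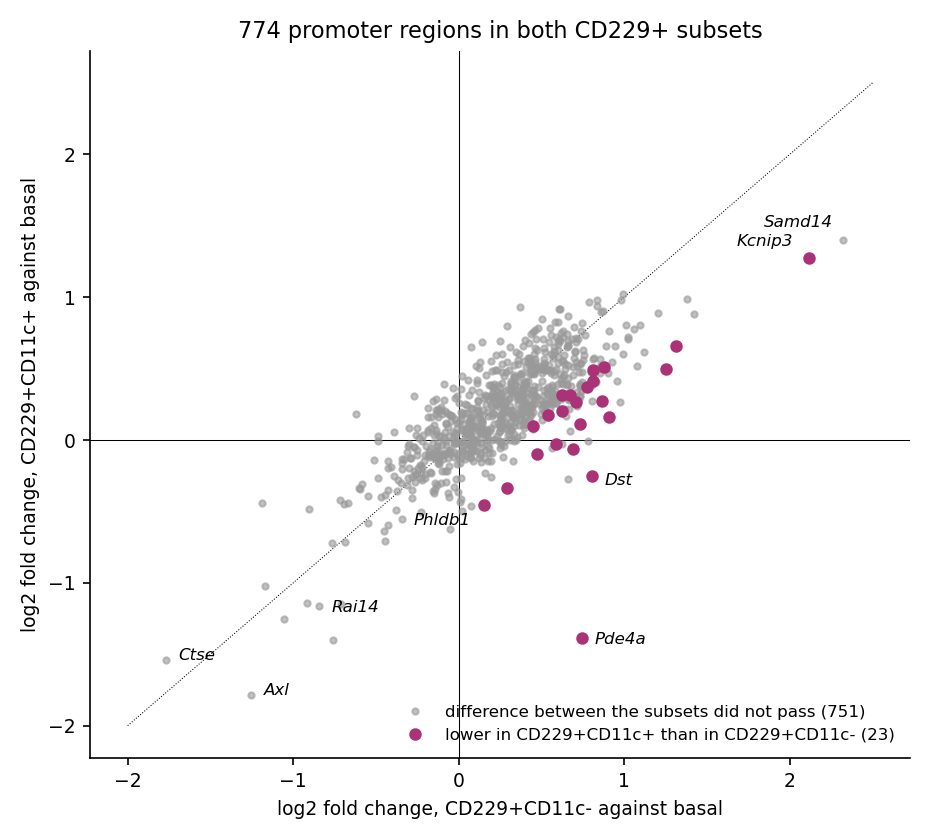
Log2 fold change against basal in CD229+CD11c- (x axis) and in CD229+CD11c+ (y axis) for the 774 promoter regions (points), with the 23 whose level was lower in CD229+CD11c+ than in CD229+CD11c- in colour. Both axes use the same 3 basal libraries, which alone makes points lie along the dotted line of equal change; Pde4a stands apart in the lower right, at 0.75 and -1.39.

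CD229-CD11c- microglia, the cuprizone subset without either marker, showed no called promoter against basal, where 0.00% of all regions were called (edgeR, and 0 promoters with DESeq2). An unadjusted p under 0.05 was found at 56 promoters, or 7.24%, against 4.19% of all regions. The promoter median was 0.06, against 0.01 over all regions. The smallest p belonged to Pcolce2, a collagen processing gene, with 29.9, 27 and 29.4 CPM in basal and 39.1, 37.0 and 33.7 in CD229-CD11c-. These values did not overlap, and Pcolce2 held 55.4, 56.3 and 54.9 in CD229+CD11c- and 47.5, 46.8 and 42.2 in CD229+CD11c+. Parva, Twist2, Nkx1-2 and Dclk1 came next at 0.49, 0.68, 0.24 and 0.40, and all 5 had an adjusted p of 0.983 (edgeR). With the libraries whose titles carry a PE150 tag alone, described further on, all 5 passed (adjusted p from 0.00101 at Parva to 0.0275 at Dclk1, edgeR), and with that tag as a covariate Parva (0.49, adjusted p = 0.0390, edgeR) and Twist2 (0.70, adjusted p = 0.00921, edgeR) did.

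Within cuprizone, CD229+CD11c- against CD229-CD11c- gave 172 higher and 9 lower promoters, 23.4% of promoters, where 8.35% of all regions were called, 6.75% higher and 1.60% lower. With total-tag scaling, which lowered the median of all regions by 0.11, the split was 114 and 30. With the replicate number as a block, in a fit of the cuprizone libraries, it was 284 and 27, against 154 and 7 in the same fit without the block. Kcnip3 (1.66), Car11 (1.15), Adcy6 (1.07) and Rapgef3 (0.98) led the rises, and Rai14 (-0.71), Xylt1 (-0.64), Abr (-0.51) and Pianp (-0.50) the falls by the naming rule. The Abr call was kept in 4 of 12 fits with a library left out and the Pianp call in 8. This comparison shares no library with CD229+CD11c+ against basal. Both take their spread estimate from the same fit, however, so their calls are not independent. Higher in both were 77 promoters, 49.7% of the 155 and 44.8% of the 172, where 22.2% of all 774 were among the 172. Lower in both were 5, of 16 and 9, and 2 were lower in CD229+CD11c+ and higher in CD229+CD11c-, Pde4a and Phldb1.

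CD229+CD11c+ against CD229-CD11c- gave 14 higher and 6 lower promoters, 2.58% of promoters, where 0.547% of all regions were called, 0.395% higher and 0.152% lower. With total-tag scaling the split was 6 and 6, and with loess offsets 5 and 4. With the replicate block in a fit of the cuprizone libraries it was 193 and 21, against 8 and 4 in that fit without the block. The higher ones were led by Kcnip3 (0.81), Rapgef3 (0.66), Mkx (0.53) and Gnas (0.50). The lower ones were Axl (-1.33), Fblim1 (-1.07), Rai14 (-1.03), Pde4a (-1.01), Pianp (-0.68) and Xylt1 (-0.67). CD229+CD11c- against basal shares no library with this comparison but takes its spread estimate from the same fit, so the calls are not independent. All 14 were among the 263 that rose there, and 5 of the 6, all but Pde4a, among the 17 that fell. Of all 774, 34.0% rose there and 2.20% fell. The count was 13 without basal replicate 5, 7 without CD229-CD11c- replicate 2, 28 without CD229-CD11c- replicate 3, 11 without CD229+CD11c- replicate 2, and 4 and 5 without CD229+CD11c+ replicates 1 and 2. Only Rapgef3 and Rai14 among the genes named by the rule here passed in all 12 such fits. Of the other lower ones, the call was kept in 3 of 12 fits at Axl, 6 at Pde4a and 11 at Fblim1.

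In 8 of the 12 libraries the name carries a PE150 tag, and 1 library of each group, always replicate 3, lacks it. With the 8 tagged libraries alone, 352 promoters were higher and 36 lower in CD229+CD11c- against basal. In the untagged pair 96.0% of the 352 and 77.8% of the 36 had the same sign, where 74.0% of all promoters had a positive and 26.0% a negative sign. In CD229+CD11c+ against basal these shares were 95.2% of 311 and 78.8% of 33. In that untagged pair 70.4% of all promoters had a positive and 29.6% a negative sign. In CD229-CD11c- against basal, 73 were higher with the tagged libraries alone, and 53.4% of them kept the sign in the untagged pair, where 49.1% of all promoters had it. With the tag as a covariate all 175 checked calls of named genes still passed. A further 33 values of named genes that had not passed did so, among them Fos in both CD229+ subsets, Ifitm3 and Gpx3 in CD229+CD11c- and Rrm2 in CD229+CD11c+.

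How far a promoter rose went with how strongly it was marked in basal cells, as the authors measured on basal libraries outside the counts. Other regions showed the same gradient at lower medians in the upper classes. In the lowest 10% of all regions by basal enrichment, the 24 promoters had a median log2 fold change of -0.12 in CD229+CD11c- against basal and the other regions -0.09. In the highest 10%, which held 189 promoters, the medians were 0.44 and 0.19, and 52.4% of promoters rose against 33.4% of the other regions. In CD229+CD11c+ the medians in that class were 0.30 and 0.15. The TMM factors were 0.9436 to 0.949 in CD229+CD11c- libraries and 1.0261 to 1.0625 in basal ones, and input was not subtracted. Whether background differed between the groups was not tested. By length, promoter regions of 10 to 20 kb had a median of 0.32 in CD229+CD11c- and other regions of that length 0.00, and promoter regions under 3 kb had 0.12 against -0.09. Depth moves with length, since longer regions hold more tags, and its part in the calls was not tested. Beside other annotation classes, 22.8% of 114 promoters of noncoding RNAs rose in CD229+CD11c-, 11.6% of 8644 intronic and 5.95% of 15486 intergenic regions, against 34.0% of the 774. Of 1297 exonic and other genic regions 21.9% rose, and of the 11 protein-coding promoters of 50000 bp or more, which the length limit left out, 6 did (54.5%).

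**Figure D4:**
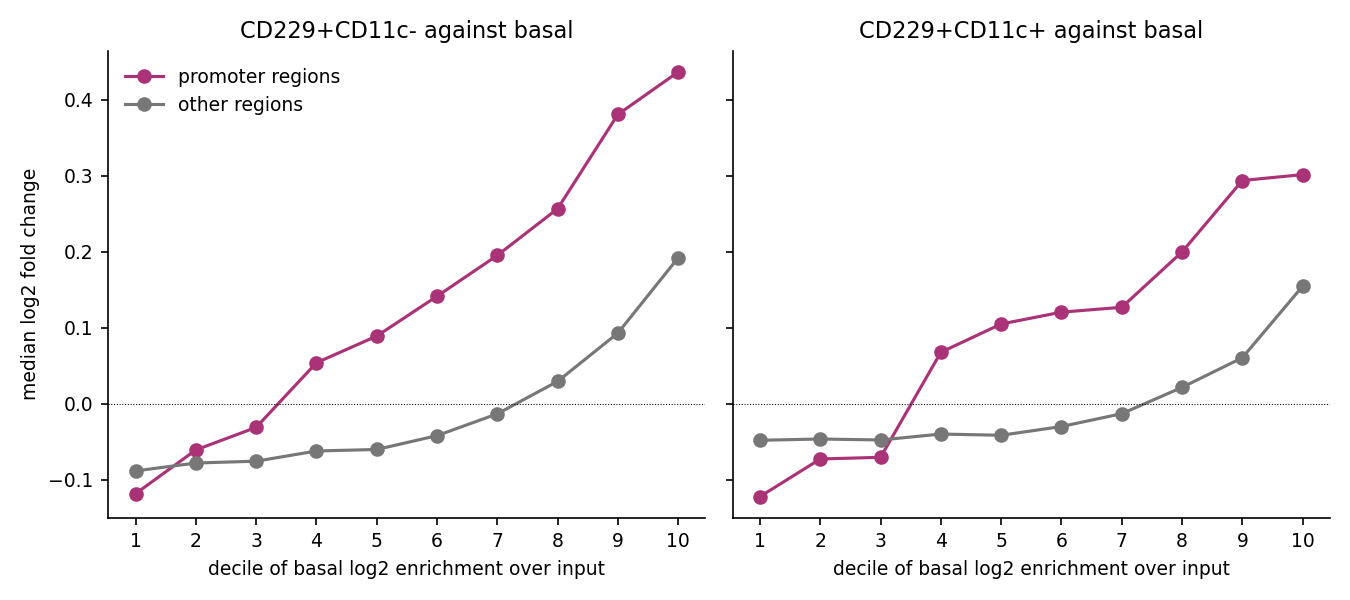
Median log2 fold change (y axis) of promoter regions and of all other regions by decile of basal enrichment over input (x axis, 1 lowest), for CD229+CD11c- (left) and CD229+CD11c+ (right) against basal. Promoter medians rise from -0.12 to 0.44 on the left and from -0.12 to 0.30 on the right, and lie above the other regions from the fourth decile on in both panels.

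Promoter sequence was available from RefSeq for 580 of the 774 regions, or 74.9%. That is under the 80% needed for a statement on all of them, so a sequence check over the whole set is void and only the 580 are described. CpG content was taken as observed over expected, the CpG count times the window length over the product of the C and G counts. In the 108 windows under 0.2 the median log2 fold change in CD229+CD11c- against basal was -0.00 and 13.0% rose. The median was 0.11 from 0.2 to 0.4, 0.27 from 0.4 to 0.6, 0.38 from 0.6 to 0.8 and 0.46 in the 97 windows at 0.8 and over, where 53.6% rose. In CD229+CD11c+ the medians of the lowest and highest class were -0.02 and 0.39. Basal enrichment moved along, with medians of 1.53 in the lowest class and 1.88 in the highest. Among promoters at or above the median of basal enrichment the medians in CD229+CD11c- still went from 0.25 to 0.53 between these classes, and among those below it from -0.06 to 0.36. Kcnip3, with an observed over expected value of 0.73, and Twist2, with 0.79, lay in the class from 0.6 to 0.8, and so did Rai14 and Pde4a at 0.72 and 0.78, while Axl (0.23) and Chst1 (0.06) lay low. Low values were not typical of losses. The median was 0.64 in the 22 windows of promoters that fell in either CD229+ subset. It was 0.67 in the 187 that rose in CD229+CD11c- and 0.41 in the 356 called in neither.

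**Figure D5:**
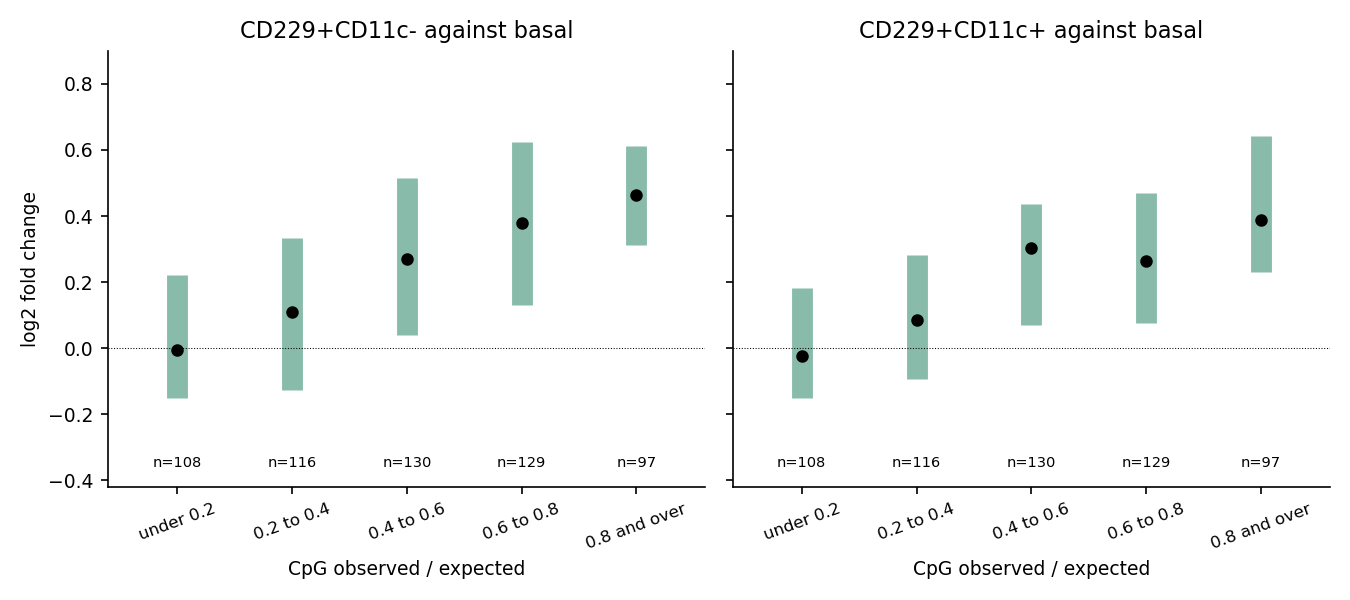
Log2 fold change (y axis) by CpG observed over expected in the 250 bases before the gene start (x axis) for 580 promoter regions, in CD229+CD11c- (left) and CD229+CD11c+ (right) against basal. Points are medians and bars the middle 50%; the medians on the left rise from -0.00 in 108 windows to 0.46 in 97 windows.

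The same windows were searched on both strands for 7 short motifs. The GC box CCGCCC was in 64.2% of 187 windows of promoters that rose in CD229+CD11c-, 59.1% of 22 that fell in either CD229+ subset and 42.1% of 356 called in neither, against 42.7% of windows of all protein-coding genes. The AP-1 motif TGANTCA was in 3 of the 22, 4 of the 187 and 27 of the 356, against 6.22% of all protein-coding windows. The E-box CACGTG, the TATA box TATAAA, the EGR motif GCGTGGGCG, the PU.1 core GAGGAAGT and the interferon-stimulated response element were in 1, 0, 0, 0 and 1 of the 22. In the same order they were in 14, 16, 4, 2 and 1 of the 187 and 17, 36, 0, 8 and 8 of the 356. Among all protein-coding windows the shares were 6.64%, 12.4%, 0.72%, 2.18% and 3.02%. GC boxes hold a CpG, so their share moves with CpG content. A match is a match of letters, and no binding was measured.

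In all, 11 genes have more than 1 promoter region, and these were chosen after their values were seen. Esrrg, an orphan nuclear receptor gene, has 3: the region of 13085 bp rose by 0.75 ± 0.09 in CD229+CD11c- and 0.59 ± 0.09 in CD229+CD11c+, while the others, 3905 and 6757 bp long, had 0.00 and -0.15 in CD229+CD11c- and did not pass. The long region held 64.7, 53.2 and 55.8 CPM in basal and 105, 96.8 and 90.7 in CD229+CD11c-, without overlap. Fgf12, which encodes a channel-binding growth factor homologue, rose at 1 of 2 promoters, by 0.58 and 0.63, and the other had 0.37 and 0.46 without passing. Tafa5 also rose at 1 of 2. Bdnf, the brain-derived neurotrophic factor gene, had 0.25 and -0.01 at its 2 promoters in CD229+CD11c- and passed at neither. Differences between promoters of 1 gene were not tested.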

How the data were processed

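H3K27me3 tags were counted by the authors in 26326 regions and deposited as raw counts for 12 libraries (3 per group). Regions were called on basal replicates 1 and 2, per the labels, and input libraries were not subtracted from the counts. Basal enrichment is the deposited log2 fold over input of those basal libraries, per the file headers. Bowtie2 2.3.4.1, fastp 0.20.0 and HOMER are named in the submitters' processing notes, with mm10; other settings are not given in the sources used here. Reads are 150 bases long in the counted libraries, per the labels.

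The counts were fitted over all regions and 4 groups with edgeR 4.0.16 in R 4.3.3 (filterByExpr, which removed 0 regions, TMM scaling, quasi-likelihood test, Benjamini-Hochberg adjustment over all regions, threshold 0.05). CPM values use the TMM-scaled region totals. Fold changes carry the model's SE. The fit was tested on simulated counts. Alternatives were 3 other scalings, other filters, DESeq2 1.42.0, a fit of the 2 groups alone, the PE150 tag as covariate, tagged libraries alone, the replicate number as block, and each library left out. A fit of cuprizone libraries without the block was added after the data were seen. Same-numbered libraries deviated together in both comparisons with CD229-CD11c- (lowest correlation 0.128 and 0.134), so blocked counts stand beside those; between the CD229+ subsets 1 pair was at 0.083, and its blocked count is in the closing section. This pairing is read from the data, not the labels, and number 3 is also the library without the PE150 tag. CD229-CD11c- replicate 2 correlated more with replicate 1 of CD229+CD11c- (0.248) and of CD229+CD11c+ (0.184) than with replicate 2 of either. Its replicate 1 correlated most with its own number in both. Pairing by number among the tagged libraries is thus not established.

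Of 774 gene names, 2 had been turned into dates and were restored through their gene identifiers. The members and lists were chosen with earlier results of these data known. Of 27 gene lists, 14 have 3 or more members, and 219 promoters are in at least 1. Named genes are, for each of the CD229+ comparisons with basal and the comparison of both, the 8 largest changes each way that passed without overlap, outside the lower quartile of level; 4 each way within cuprizone; the 5 smallest p in CD229-CD11c-; 2 per list, with all members of the microglia, interferon, Polycomb, cyclin and immediate-early lists; the 3 extremes of length and of basal enrichment; and named genes of opposite sign between the CD229+ subsets. Other names were chosen after their values were seen. Depth per library and per region is given with the results.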

Additional observations from a re-analysis of the deposited data

Results flagged for a closer look

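At 23 promoters the change against basal differed between the CD229+ subsets by a direct test of the difference (CD229+CD11c+ minus CD229+CD11c-, edgeR, adjusted over all regions), and all 23 were lower in CD229+CD11c+. The log2 difference was -2.13 at Pde4a, -1.06 at Dst, -0.85 at Kcnip3, -0.76 at Adcy6, -0.75 at Hap1, -0.75 at Snai3 and -0.65 at Car11. It was -0.63 at Chrm1, -0.62 at Glt1d1, -0.62 at Plxnd1, a semaphorin receptor gene, -0.61 at Phldb1, -0.60 at Nbl1, which encodes a bone morphogenetic protein antagonist, and -0.57 at Pparg. It was -0.44 at Cnn3, -0.42 at Col8a2, -0.41 at the homeobox gene Gsc2, -0.39 at Ntf5, -0.37 at Skor1, -0.36 at Cd70, -0.35 at Ank1, -0.35 at Jhy, -0.32 at Nkx1-2 and -0.31 at Gdf7.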

How the results depend on the processing

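The count of called promoters in CD229+CD11c- against basal stayed within 1.5 times of 280 under every alternative run, and leaving out each library in turn gave 197 to 352. In CD229-CD11c- against basal it was 0 as reported, 5 with the PE150 tag as covariate and 76 with the tagged libraries alone, and 0 to 3 with a library left out. In CD229+CD11c+ against basal (171) it was 266 with only the 2 groups compared, 341 with the PE150 covariate, 344 with tagged libraries alone, and 60 to 264 with a library left out. In CD229+CD11c- against CD229-CD11c- (181) it was 304 with the PE150 covariate, and 132 to 197 with a library left out. In CD229+CD11c+ against CD229-CD11c- (20) it was 12 with total-tag scaling, 9 with loess offsets, 35 with DESeq2, 6 with the 2 groups, 187 with the PE150 covariate, 94 with tagged libraries alone, 12 with cuprizone libraries only and no replicate block, and 4 to 28 with a library left out. In CD229+CD11c+ against CD229+CD11c- (23) these were, in the same order, 5, 10, 44, 51, 140, 102 and 18, and 1 to 67 with a library left out. The causes were not tested. With the replicate number as a block in the cuprizone libraries the 3 within-cuprizone counts were 311, 214 and 152. Deviations of same-numbered libraries correlated at 0.083 to 0.457 over 9 pairs, the lowest between the CD229+ subsets, and those of different numbers at -0.373 to 0.248. In 3 of 9 checks of a library against another group its best match had another number. Without the length limit promoters took 3.06%, 3.14%, 3.49% and 3.36% of region tags in basal, CD229-CD11c-, CD229+CD11c- and CD229+CD11c+, and with a library left out 2.74 to 2.78%, 2.81 to 2.86%, 3.14 to 3.16% and 3.03 to 3.06%. Under the alternatives 175 calls of named genes were checked, and none changed sign. Some calls named in the text, among them those of Phox2a and Bcl11b, were not among the 175. Of the 175, 93 passed in all 12 fits with a library left out, and 144 passed with total-tag scaling. Of the 774 promoters, 116 had a mean under 100 tags, where the counts limit the precision most.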
